A study of Mus musculus with 10 samples.

Results

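The integrated stress response genes described here are Atf4, Atf3, Ddit3, Cebpb, Trib3, Chac1, Sesn2, Asns, Phgdh and Psat1, chosen by name as the transcription factor ATF4, its partners and targets and the first enzymes of serine synthesis. The choice was made with earlier results of these data known, so the share of these genes called is a description. All 10 were found among the 25239 genes of the count table, and all 10 passed the filter on low counts that left 18419 genes for testing. The RNA came from testis of C57BL/6 mice on day 4 (P4) or day 7 (P7) after birth. The mice were wild type (WT) or carried the genotype label Lsm7-flfl-stra8, a conditional Lsm7 knockout by its label (cKO). Each stage had 2 libraries of WT and 3 of cKO. The WT groups carried no stated allele, no treatment is given for any group, and the labels do not say whether littermates were used or how the deletion was driven beyond naming Stra8, a gene of germ cells entering differentiation. The LSm ring, of which the Lsm7 protein is a subunit, binds U6 small nuclear RNA and acts in messenger RNA decay.

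The integrated stress response is a translational switch. When amino acids run short, unfolded protein collects in the endoplasmic reticulum, heme is lacking or double-stranded RNA appears, the matching kinase phosphorylates the initiation factor eIF2, which slows protein synthesis and lets ribosomes reach the coding frame of the Atf4 messenger RNA. ATF4 then raises genes of amino acid synthesis, uptake and charging, and, under lasting stress, genes that check growth or favour cell death. Because the first step acts on translation, the level of Atf4 messenger RNA is only part of the activity of the pathway, and protein was not measured.

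Each library held 28799371 to 41797353 counted reads. The labels name germ cells as the cell type, yet the protocol extracts RNA from testis with no sorting step, and summed markers of Sertoli cells (3260 to 5860 CPM over the samples, CPM being reads scaled to a common library size of 1 M) lay above those of germ cells (571 to 2480 CPM) in every sample. In such bulk RNA, fewer cells of a type and less RNA per cell cannot be told apart. Between the P7 WT libraries there was little more than sampling noise, with a chi-square of 1.98 per degree of freedom where counting both mates of a pair alone gives up to 2, against 25.5 to 135 for the other pairs within a group. They were summed and counted as 1 sample, which left 9 samples, so that every comparison with P7 WT rests on 1 sample assumed to vary like the others. P7 cKO library 1 stood apart from the other P7 cKO libraries (chi-square per degree of freedom 128 and 135). Lsm7 was read at 36.2 and 25.7 CPM in P4 WT, at 44.9, 50.5 and 43.6 CPM in P4 cKO, at 33.3 CPM in P7 WT against 45.2, 26.0 and 20.3 CPM in P7 cKO. A lower Lsm7 level was thus not detected in the libraries labelled cKO, although reads from outside a deleted part would be counted too, and each direction given for cKO refers to libraries with that label.

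On GRCm38, Atf4 lies at chr15:80255184-80257545, Cebpb at chr2:167688915-167690432, Ddit3 at chr10:127290793-127296288 and Chac1 at chr2:119351242-119354327, all on the plus strand. Atf3 lies at chr1:191170297-191183333, Trib3 at chr2:152337425-152344060 and Sesn2 at chr4:132492807-132510456, on the minus strand. The enzyme genes Asns (chr6:7675165-7693209), Phgdh (chr3:98313171-98339969) and Psat1 (chr19:15905123-15925059) are on the minus strand too. Values count reads over all exons of each gene.

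Promoter sequences are shown first for 5 of the genes, because the set divides by a short element there. ATF4 binds with a C/EBP partner to a composite element whose core was searched as TGATGNAA on both strands, with no other motif searched. In the 250 bases before the annotated start, from RefSeq on GRCm38.p6, the core was found in 3 of the 10 genes, Asns, Atf3 and Chac1, and in 3.45% of 32851 promoters of the same length. With the 50 bases after the start added, in a 300-base window, 4 of the 10 genes and 3.97% of promoters had a match. The sequences below run 5′ to 3′ towards the start, with the core in capitals. Phgdh and Cebpb are shown because they were the members called between the genotypes in the fit reported. Neither 250-base window held the core, and neither did those of Atf4, Ddit3, Psat1, Trib3 and Sesn2, which were not called. Asns, Atf3 and Chac1, which had the core, were not called between the genotypes either. The gene that gained a match in the 300-base window is not named here.
Asns, chr6:7693210-7693459, minus strand: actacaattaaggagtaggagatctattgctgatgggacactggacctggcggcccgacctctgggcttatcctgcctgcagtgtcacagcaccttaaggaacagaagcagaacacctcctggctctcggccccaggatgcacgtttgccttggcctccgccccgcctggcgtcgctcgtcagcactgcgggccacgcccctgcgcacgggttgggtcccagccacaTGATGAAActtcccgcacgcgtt
Atf3, chr1:191183334-191183583, minus strand: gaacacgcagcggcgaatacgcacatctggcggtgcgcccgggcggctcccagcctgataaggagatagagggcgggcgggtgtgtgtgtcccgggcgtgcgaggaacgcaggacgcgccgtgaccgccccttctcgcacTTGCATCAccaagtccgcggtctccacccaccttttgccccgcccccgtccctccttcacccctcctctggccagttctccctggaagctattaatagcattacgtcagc
Chac1, chr2:119350992-119351241, plus strand: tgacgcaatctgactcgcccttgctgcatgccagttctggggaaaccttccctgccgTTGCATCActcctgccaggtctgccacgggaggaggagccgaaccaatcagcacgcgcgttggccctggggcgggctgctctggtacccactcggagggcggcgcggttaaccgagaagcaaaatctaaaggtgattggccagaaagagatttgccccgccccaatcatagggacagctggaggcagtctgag
Phgdh, chr3:98339970-98340219, minus strand: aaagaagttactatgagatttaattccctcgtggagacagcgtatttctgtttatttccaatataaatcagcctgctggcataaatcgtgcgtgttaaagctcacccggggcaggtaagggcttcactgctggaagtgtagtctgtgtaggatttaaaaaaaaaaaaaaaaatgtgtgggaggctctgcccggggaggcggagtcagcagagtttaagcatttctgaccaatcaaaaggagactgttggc
Cebpb, chr2:167688665-167688914, plus strand: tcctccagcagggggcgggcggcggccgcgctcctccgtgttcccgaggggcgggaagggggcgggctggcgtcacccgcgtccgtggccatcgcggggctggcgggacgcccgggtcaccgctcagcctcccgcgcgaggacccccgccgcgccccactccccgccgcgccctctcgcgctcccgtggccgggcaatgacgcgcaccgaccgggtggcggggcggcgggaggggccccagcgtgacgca
The core lay 15 bases before the start in Asns, in sense, and 102 and 185 bases before it in Atf3 and Chac1, on the opposite strand. The Cebpb window was 81.6% G and C and the Phgdh window 44.0%. A match in these letters is a description, not a binding site, and a window without a match says nothing about ATF4.

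Levels are given as CPM scaled with TMM factors, and between genes as CPM per kb of exon. On the per-kb scale in P4 WT, Atf4 led with a mean of 142 CPM per kb, followed by Psat1 (41.7), Phgdh (36.1), Asns (33.2), Ddit3 (17.7), Cebpb (5.37), Trib3 (2.78), Sesn2 (2.67), Atf3 (1.39) and Chac1 (0.141). The samples of neighbours overlapped for Psat1 and Phgdh, for Phgdh and Asns, and for Trib3 and Sesn2, and not for the other neighbours in this order. The serine genes changed place in P4 cKO, where Phgdh came next after Atf4 at 72.5 CPM per kb, above Asns (33.4) and Psat1 (32.6). Chac1, which degrades glutathione, was barely read, with 8 and 6 reads in P4 WT, 12, 2 and 11 in P4 cKO, 4 and 4 in the P7 WT libraries and 8, 32 and 16 in P7 cKO, so that its values carry little information at this depth.

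**Figure D1:**
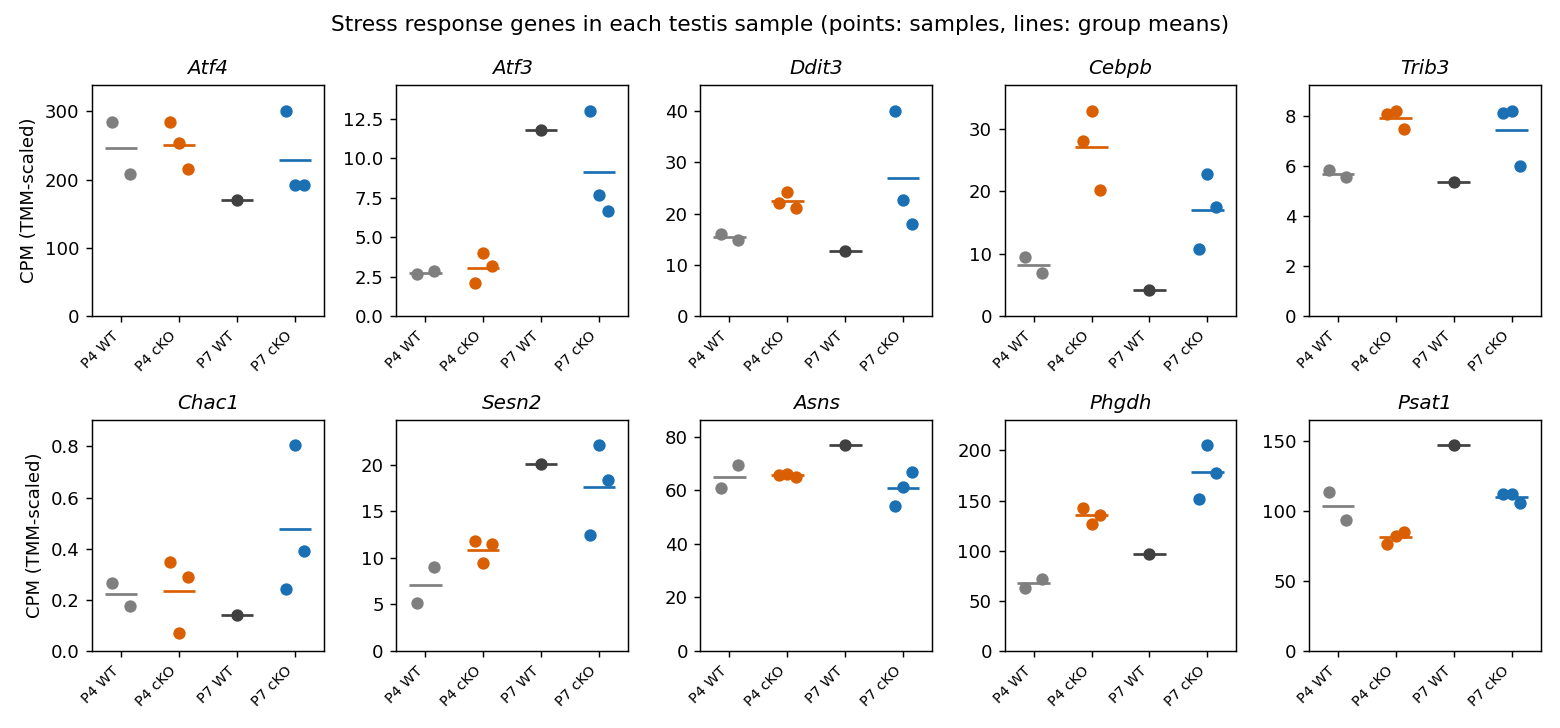
Level of each of the 10 genes (CPM with TMM factors, linear axes from 0, each panel with its own scale) in the 9 samples, with points for samples and lines for group means; P7 WT is 1 summed sample. Phgdh and Cebpb were higher in every cKO sample than in every WT sample of the same stage, Psat1 was lower in every one, and Atf3 and Sesn2 were higher at P7 than at P4 in both genotypes.

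At P4, the question was whether stress response transcripts differ when Lsm7 is targeted. Phgdh and Cebpb rose in the libraries labelled cKO, by about 2.01-fold and 3.32-fold, while Atf4 itself, Asns and Atf3 did not pass the test. In all, 2 of the 10 genes were called higher and 0 lower by edgeR, where 4.84% of all genes tested were called higher and 4.13% lower (8.96% in either direction). The balance moved with the scaling, from 891 higher and 760 lower to 528 and 1544 with library totals and to 999 and 389 with offsets. The median log2 fold change of the 10 was 0.32, and that of all genes 0.00. The groups did not overlap for 5 genes that were higher in every cKO sample (24.1% of all genes) and for 1 that was lower (25.6%).

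Atf4, the transcription factor at the centre of the response, was read at 284 and 208 CPM in P4 WT against 285, 254 and 215 CPM in P4 cKO. The groups overlapped, with a log2 fold change of 0.03 (SE 0.24, adjusted p = 0.942). Its sign turned with library totals as the scale (-0.13), a setting that moved the median of all genes to -0.16.

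The transcription factor genes downstream of Atf4 parted from each other at P4. Cebpb, a leucine zipper factor that pairs with ATF4 and also acts in inflammation and metabolism, was read at 9.40 and 6.90 CPM in WT against 28.1, 32.9 and 20.2 CPM in cKO. Every cKO sample thus lay above both WT samples, and Cebpb rose (log2 fold change 1.73, SE 0.33, adjusted p = 0.0189). Ddit3, which encodes CHOP, the factor tied to cell death under lasting stress, was read at 16.1 and 14.9 CPM in WT against 22.0, 24.3 and 21.1 CPM in cKO. Its groups did not overlap either, yet the change of 0.54 (SE 0.29, adjusted p = 0.239) did not pass. The last 68 bases of Ddit3 overlap an exon of Mars1, which runs the other way, so reads there may not be assigned to either gene with certainty. Atf3, induced by many kinds of stress, was read at 2.65 and 2.83 CPM in WT against 2.08, 3.97 and 3.16 CPM in cKO, with overlapping groups (0.16, SE 0.35, adjusted p = 0.789).

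Genes of feedback and growth control were slightly higher without passing. Trib3, a pseudokinase that restrains ATF4, was read at 5.83 and 5.57 CPM in WT against 8.10, 8.22 and 7.48 CPM in cKO (0.48, SE 0.23, adjusted p = 0.197). Sesn2, which senses leucine and restrains the growth kinase complex mTORC1, was read at 5.13 and 9.05 CPM in WT against 11.8, 9.41 and 11.5 CPM in cKO (0.62, SE 0.30, adjusted p = 0.193). In both genes the cKO samples lay above the WT samples, for Sesn2 by little.

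Of the genes of amino acid synthesis, 1 of 3 passed at P4. Phgdh, the enzyme that commits a glycolytic intermediate to serine, was read at 63.1 and 71.9 CPM in P4 WT against 143, 127 and 136 CPM in P4 cKO. Its log2 fold change was 1.01 (SE 0.18, adjusted p = 0.0147), a rise with a wide gap between the groups. Psat1, the aminotransferase that takes the next step, was read at 114 and 93.5 CPM in WT against 76.7, 81.9 and 84.8 CPM in cKO. All cKO samples lay below both WT samples, but the value of -0.36 (SE 0.15, adjusted p = 0.154) did not pass. Asns, which makes asparagine and is a textbook ATF4 target, was read at 60.7 and 69.4 CPM in WT against 65.5, 66.2 and 64.8 CPM in cKO, within the WT range in every sample (0.01, SE 0.16, adjusted p = 0.974).

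**Figure D2:**
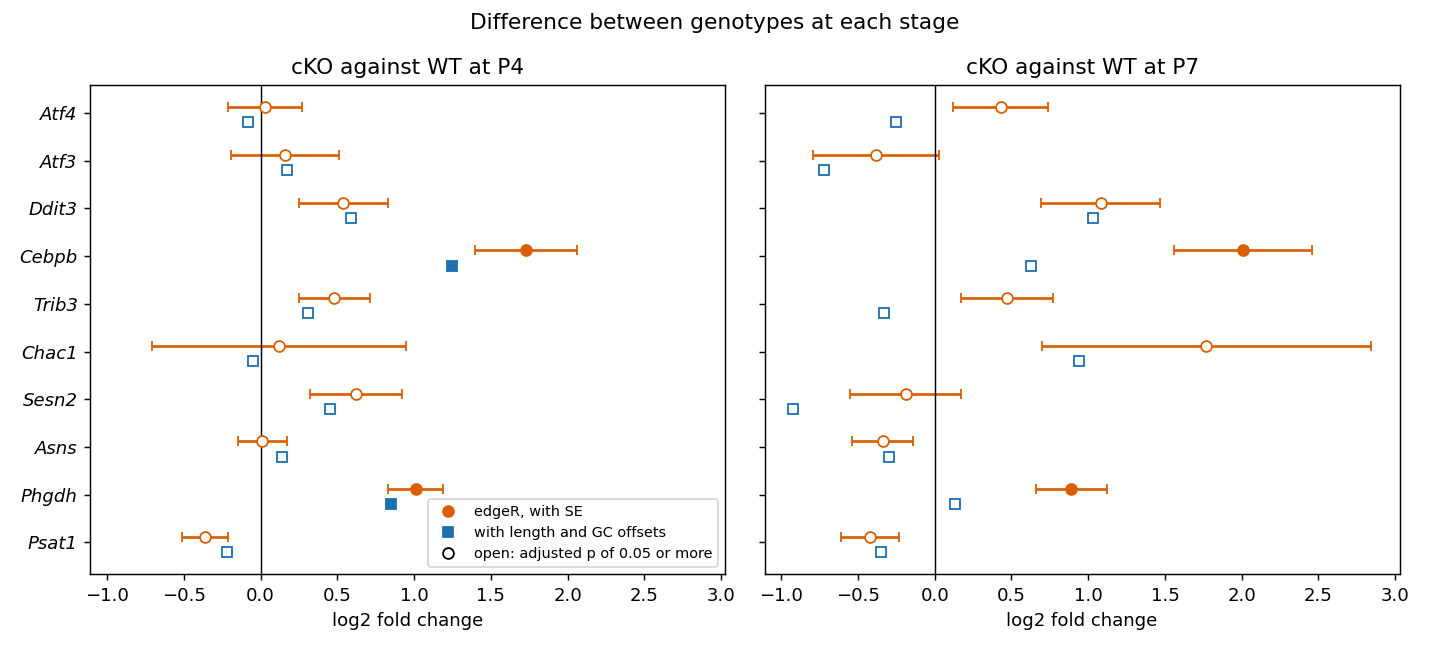
Log2 fold change of each gene in cKO against WT at P4 (left) and P7 (right). Circles are the edgeR values with their SE, squares the values with length and GC offsets, and filled symbols have an adjusted p under 0.05: Phgdh and Cebpb are filled at P4 in both, and at P7 only without offsets.

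The calls at P4 rested on few libraries. For Phgdh the call ended when P4 WT library 1 (0.91, adjusted p = 0.191), P4 cKO library 2 (1.04, adjusted p = 0.0568) or P4 cKO library 3 (0.99, adjusted p = 0.0609) was left out. For Cebpb it ended on leaving out either P4 WT library (1.97, adjusted p = 0.186, for library 1 and 1.52, adjusted p = 0.0671, for library 2), P4 cKO library 2 (1.56, adjusted p = 0.0676) or P4 cKO library 3 (1.89, adjusted p = 0.0569). Both kept their direction in all 20 alternatives, from 0.85 to 1.10 for Phgdh and from 1.25 to 1.97 for Cebpb.

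The P7 comparison had a single summed sample for WT. Phgdh and Cebpb were again called higher in the libraries labelled cKO, 2 of the 10 genes with 0 lower, where 7.26% of all genes were called higher and 9.72% lower (17.0% in either direction). The median of the 10 was 0.45, and that of all genes 0.08. With length and GC offsets the median of the 10 turned to -0.27 (all genes 0.02), and on leaving out P7 cKO library 1 it was 0.29. With library totals, 1744 genes were called higher and 1402 lower, against 1338 and 1791. In every cKO sample 6 genes were higher than in the WT sample (36.2% of all genes) and 2 lower (34.6%), shares that a single sample on 1 side makes common. Chac1 was among the 6, with only 8 reads in the summed P7 WT sample and 8, 32 and 16 in P7 cKO.

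Phgdh was read at 96.2 CPM in P7 WT (94.7 and 97.5 CPM in its libraries) and at 152, 205 and 177 CPM in P7 cKO, a rise of 0.89 (SE 0.23, adjusted p = 0.0254). Cebpb was read at 4.23 CPM in P7 WT (4.39 and 4.08 CPM in its libraries) and at 10.7, 22.8 and 17.5 CPM in P7 cKO, a rise of 2.01 (SE 0.45, adjusted p = 0.0158). Both genes lay above WT in every cKO sample. Both calls ended when length and GC content were fitted as offsets, where Phgdh stood at 0.13 (adjusted p = 0.842) and Cebpb at 0.63 (adjusted p = 0.516). Neither gene passed when only P7 samples were fitted (Phgdh 0.86, adjusted p = 0.107; Cebpb 1.97, adjusted p = 0.0840), and Phgdh also failed on leaving out P7 cKO library 2 (0.78, adjusted p = 0.0712).

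Base composition moved with the genotype at P7 across the whole table. Genes in the fifth with the lowest GC content had a median log2 fold change of -0.75 in cKO against WT, and those in the fifth with the highest GC content 0.79, against -0.18 and 0.22 at P4. The Cebpb transcript, at 67.2% G and C, was richer than or equal to 99.7% of the genes tested, and Phgdh, at 57.2%, than 87.4%, where the median gene had 49.8%. Among the other members, Sesn2 (58.7%), Trib3 (58.2%), Chac1 (57.4%) and Atf4 (55.5%) were also GC-rich, and Ddit3 (45.6%), Asns (47.7%) and Psat1 (48.4%) were below the median. At P7 the genotype and this trend with base composition cannot be told apart.

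The remaining genes did not pass at P7. Ddit3 was read at 12.7 CPM in WT against 40.1, 22.7 and 18.0 CPM in cKO, a log2 fold change of 1.08 (SE 0.39, adjusted p = 0.0753). All cKO samples lay above WT, with library 1 far above the other two. It stayed near that size with offsets (1.03, adjusted p = 0.195). It passed with DESeq2 (1.09, adjusted p = 0.0261) and on leaving out P7 cKO library 3 (1.30, adjusted p = 0.0341). It also passed where the P7 WT libraries were separate samples (1.10, adjusted p = 0.0104, or 1.19, adjusted p = 0.00321, under the replicate block), which makes 4 of 20 alternatives. On leaving out P7 cKO library 1 it was 0.68 (adjusted p = 0.0527). Atf4 was read at 170 CPM in WT against 301, 192 and 192 CPM in cKO (0.43, SE 0.31, adjusted p = 0.355). Here too the high value was that of library 1, without which the difference was 0.18, and with offsets the sign turned (-0.25). Atf4 passed when 10 libraries were fitted with a block for replicate number (0.52, adjusted p = 0.0309).

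Psat1 was again lower in each cKO sample, at 147 CPM in P7 WT against 112, 112 and 106 CPM in P7 cKO (-0.42, SE 0.19, adjusted p = 0.148). Asns was read at 76.7 CPM in WT against 53.9, 61.3 and 66.8 CPM in cKO, below WT in each sample (-0.34, SE 0.20, adjusted p = 0.253). Psat1 passed only where the P7 WT libraries were taken as separate samples (-0.40, adjusted p = 0.0322, or -0.41, adjusted p = 0.0446, under the block). Trib3 (0.47, adjusted p = 0.293), Chac1 (1.77, SE 1.07, adjusted p = 0.267), Atf3 (-0.38, adjusted p = 0.547) and Sesn2 (-0.19, adjusted p = 0.750) did not pass, and with offsets Trib3 turned to -0.33.

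The levels of successive serine enzymes were also set out as a ratio within each library, which no scaling between libraries can change. The ratio was chosen after the values were seen and is a description. Per kb of exon, Phgdh had 0.736 and 1.02 reads for each read of Psat1 in P4 WT and 2.49, 2.07 and 2.14 in P4 cKO. At P7 the ratio was 0.869 in WT and 1.81, 2.45 and 2.23 in cKO. All 6 cKO samples lay above all 3 WT samples. Within a stage this had to be so, since Phgdh was higher and Psat1 lower in every cKO sample. Psph, the phosphatase that completes serine, gave 0.369 and 0.517 for each read of Psat1 in P4 WT, 0.716, 0.718 and 0.593 in P4 cKO, 0.330 in P7 WT and 0.693, 0.623 and 0.595 in P7 cKO, again with no overlap. Psph too was higher in every cKO sample than in WT of its stage, so its ratio to Psat1 also had to part within a stage. Psph itself did not pass at P4 (0.27, adjusted p = 0.313) or P7 (0.53, adjusted p = 0.124). The ratio is not free of base composition or exon length, since Phgdh is richer in GC and shorter than Psat1.

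**Figure D3:**
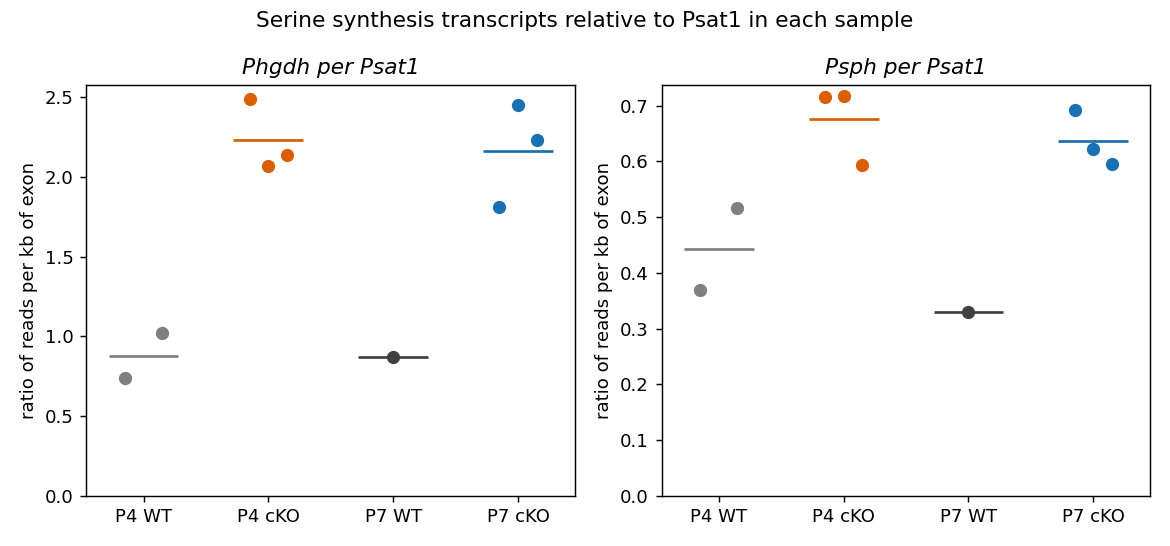
Ratio of reads per kb of exon of Phgdh (left) and Psph (right) to Psat1 in each of the 9 samples, by group, with lines at the group means. The cKO samples lie between 1.81 and 2.49 for Phgdh, above the WT samples at 0.736 to 1.02.

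The difference between genotypes was not shown to change with stage. In the interaction test edgeR called 0 of 18419 genes (0.00%), with 4619 at an unadjusted p under 0.05, while DESeq2 called 1720. None of the 10 genes had an unadjusted p under 0.05, and the smallest adjusted p among them was 0.292, for Sesn2 (-0.80, SE 0.46). No member was called in the interaction under any of the 19 alternatives run for it.

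From P4 to P7, Atf3 and Sesn2 rose in WT and Atf3 and Psat1 in cKO. These were 2 of 10 genes in each genotype with 0 falling, where 11.8% of all genes rose and 9.97% fell in WT (21.8% in either direction) and 14.5% rose and 14.7% fell in cKO (29.2%). With library totals the cKO balance moved from 2663 rising and 2709 falling to 3907 and 1818. The stages did not overlap for 5 genes that were higher and 5 that were lower in WT (42.6% and 42.8% of all genes), and for 4 higher and 0 lower in cKO (22.9% and 23.2%). Atf3 rose by 2.11 in WT (SE 0.44, adjusted p = 0.00774), from 2.65 and 2.83 to 11.8 CPM, and by 1.57 in cKO (SE 0.31, adjusted p = 0.00350), to 13.0, 7.64 and 6.66 CPM. Sesn2 rose by 1.50 in WT (SE 0.38, adjusted p = 0.0176), to 20.1 CPM, and reached 12.5, 22.1 and 18.4 CPM in cKO (0.70, SE 0.26, adjusted p = 0.0646). Without P4 WT library 1 neither Atf3 (2.05, adjusted p = 0.0596) nor Sesn2 (1.14, adjusted p = 0.108) passed in WT, while Atf3 passed in cKO in all 20 alternatives.

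Germ cell markers rose between the stages (10 of 12 in WT and 11 of 12 in cKO, from 571 to 726 CPM in sum to 1930 to 2480 CPM), and endothelial markers fell (4 of 6 in WT and 5 of 6 in cKO). Of the peritubular and stromal markers 2 of 8 fell in WT and 5 of 8 in cKO. Macrophage markers fell in cKO (6 of 7, and 0 in WT), as did Leydig cell markers (5 of 8, where 2 rose and 1 fell in WT). Sertoli cell markers went both ways, with 3 higher and 1 lower of 10 in WT and 3 each in cKO. The part of these cells in the stage values was not tested. Genes in the fifth with the lowest GC content had a median of 0.53 and those in the highest -0.52 in WT, against -0.06 and 0.03 in cKO.

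Psat1 rose by 0.44 from P4 to P7 in cKO (SE 0.14, adjusted p = 0.0352) and stood at 0.50 in WT (SE 0.21, adjusted p = 0.0979), so the stage values of the genotypes were alike in size. The call in cKO held in 14 of 20 alternatives and ended with offsets (0.36, adjusted p = 0.0600) and on leaving out P4 cKO library 1 (0.40, adjusted p = 0.103), 2 (0.44, adjusted p = 0.104) or 3 (0.47, adjusted p = 0.0724) or P7 cKO library 2 (0.43, adjusted p = 0.0899) or 3 (0.46, adjusted p = 0.0639). Phgdh showed 0.51 in WT (adjusted p = 0.126) and 0.39 in cKO (adjusted p = 0.0759), short of the threshold, and passed in WT with offsets (1.02, adjusted p = 0.0139). Cebpb was lower at P7 without passing, by -0.94 in WT (adjusted p = 0.145) and -0.67 in cKO (adjusted p = 0.0931), and with offsets it passed in cKO (-0.96, adjusted p = 0.0205). Atf4, Ddit3, Trib3, Asns and Chac1 did not pass in either genotype, with adjusted p values of 0.252 to 0.867 in WT and 0.307 to 0.768 in cKO.

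Immediate early genes, which respond within minutes to handling as well as to signals, moved with some of these values. The 19 genes of that list summed to 729 and 851 CPM in P4 WT, 1170, 1200 and 1020 CPM in P4 cKO, 948 CPM in P7 WT and 2460, 1070 and 1030 CPM in P7 cKO, with library 1 the highest of all. Fos, chosen after its values were seen, was read at 62.5 CPM in P7 WT against 226, 3.57 and 4.38 CPM in P7 cKO, against 2.52 to 5.84 CPM at P4. P7 cKO library 1 also had the highest level of any sample for Atf4, Atf3 and Ddit3, and the lowest level of Cebpb and Phgdh among the P7 cKO samples. The part of these genes in the stage and genotype values was not tested.

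Upstream of Atf4, none of the 4 eIF2 kinase genes was called between the genotypes at either stage. Eif2ak1, which senses heme shortage, was read at 60.1 and 53.8 CPM in P4 WT against 39.2, 40.3 and 37.6 CPM in P4 cKO (-0.54, SE 0.16, adjusted p = 0.0524). The cKO samples lay below WT, just short of the threshold. Eif2ak2, the kinase PKR that senses double-stranded RNA (-0.59, adjusted p = 0.116), and Eif2ak4, the kinase GCN2 of amino acid shortage (-0.50, adjusted p = 0.109), had values of like size, and Eif2ak3, the kinase PERK of the endoplasmic reticulum, did not (-0.01, adjusted p = 0.986). At P7 the values were -0.35 for Eif2ak1, -0.28 for Eif2ak2, -0.14 for Eif2ak3 and 0.01 for Eif2ak4. From P4 to P7 in WT, Eif2ak4 fell by 0.88 (SE 0.26, adjusted p = 0.0348), from 142 and 95.9 to 64.7 CPM.

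Among 128 other genes of the pathway in 10 lists, 8 were called higher and 1 lower at P4 (7.03%, where 8.96% of all genes were called), and 15 higher and 9 lower at P7 (18.8%, where 17.0% were). With offsets 5 of the 9 calls at P4 were kept and 0 of the 24 at P7. Those lost at P4 were Batf3 (0.49, adjusted p = 0.192), Jund (0.43, adjusted p = 0.105), Ier3 (0.99, adjusted p = 0.0745) and Klf4 (0.80, adjusted p = 0.0585). The shares of called genes were thus close to those of the whole table at both stages. Of all genes called, 875 of 1651 were kept with offsets at P4 and 2 of 3129 at P7.

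At P4 the serine, glycine and one-carbon list had 0 of 11 called (median 0.17), among them Shmt2 (0.17, adjusted p = 0.492) and Mthfd2 (0.30, adjusted p = 0.303), mitochondrial enzymes that pass the serine carbon on. Of 8 amino acid transporters, 1 fell, the arginine and lysine carrier Slc7a3 (-1.43, SE 0.27, adjusted p = 0.0183). The cystine carrier Slc7a11 did not pass (0.32, adjusted p = 0.702). Of 20 aminoacyl-tRNA synthetases, 1 rose, Sars, which charges serine (0.74, SE 0.16, adjusted p = 0.0241). Of 20 tested other outputs of ATF4, 1 rose, the autophagy receptor Sqstm1 (0.84, adjusted p = 0.0309), while the mTORC1 inhibitor Ddit4 (0.22, adjusted p = 0.391) did not pass. In the chaperone list 1 of 16 rose, Pdia6 (0.87, adjusted p = 0.0482), and the main chaperone Hspa5 did not pass (0.10, adjusted p = 0.819). The bZIP list had 1 of 9 higher, Batf3 (0.89, adjusted p = 0.0489), and 8 of its 9 genes lay higher in every cKO sample, where 24.1% of all genes did. In the immediate early list, which shares Jun and Fos with it, 12 of 19 genes were higher in every cKO sample and 2 lower. For the other outputs of ATF4 these were 7 and 2 of 20, and for the chaperones 7 and 2 of 16. Of the 4 eIF2 kinases 0 were higher and 3 lower, where 25.6% of all genes were lower. The remaining lists had 3 to 5 higher and 1 or 2 lower. Of 7 mitochondrial stress genes, 1 rose, Hspe1 (0.79, adjusted p = 0.0389), and of 19 immediate early genes 3 rose, Jund (0.83, adjusted p = 0.0257), Klf4 (0.83, adjusted p = 0.0403) and Ier3 (1.15, adjusted p = 0.0413). None of the 16 genes of eIF2 and its regulators was called at P4 by edgeR, and their median was 0.41.

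At P7, Ppp1r15a, which encodes GADD34 and reverses eIF2 phosphorylation, was read at 26.4 CPM in WT against 78.7, 59.6 and 54.4 CPM in cKO. It was called higher (1.28, SE 0.30, adjusted p = 0.0174), with 0.72 (adjusted p = 0.259) under offsets. Gcn1, which activates GCN2, was higher (1.01, adjusted p = 0.0179) and Impact, which restrains it, lower (-1.08, adjusted p = 0.0338), with 0.50 and -0.40 under offsets, and Eif2b4 was higher (0.82, adjusted p = 0.0426). Of the bZIP genes, Atf5, which is translated like Atf4, and Batf3 were higher (1.05, adjusted p = 0.0202, and 1.74, adjusted p = 0.0116), and Cebpg, an ATF4 partner, and Nfe2l2 were lower (-0.73, adjusted p = 0.0330, and -0.86, adjusted p = 0.0251). With offsets Atf5 stood at 0.02 and Cebpg at -0.08. Shmt2 was higher (0.94, SE 0.21, adjusted p = 0.0145, and 0.25 with offsets), at 54.3 CPM in WT and 105, 109 and 99.2 CPM in cKO.

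Of 20 tested outputs of ATF4, 3 were called higher at P7 and 0 lower, where 7.26% and 9.72% of all genes were. Their median was 0.17, and that of all genes 0.08. In every cKO sample 10 of them were higher than in WT and 4 lower (36.2% and 34.6% of all genes). Bbc3, which encodes the death factor PUMA, was called at 2.11 (SE 0.38, adjusted p = 0.00891), the secreted stress signal Gdf15 at 1.51 (adjusted p = 0.0341) and the translation repressor Eif4ebp1 at 1.11 (adjusted p = 0.0300), with 0.89, 0.50 and 0.94 under offsets. The transporters Slc7a1 (-1.01, adjusted p = 0.0162) and Slc38a2 (-0.81, adjusted p = 0.0217) were lower. Among the synthetases Vars (1.17), Farsa (0.85) and Sars (0.75) were higher and Dars (-0.95) lower. In the chaperone list Sel1l was lower (-0.79, adjusted p = 0.0200), and Hspa5 did not pass (-0.78, adjusted p = 0.101). The mitochondrial genes Clpp (1.09) and Lonp1 (0.98) were higher and Yme1l1 (-1.18) lower, and of the immediate early genes Jund was higher (1.50) and Klf6 lower (-1.16). All 24 of these calls were lost with offsets, with no change of sign, where 2 of the 3129 calls over all genes were kept.

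**Figure D4:**
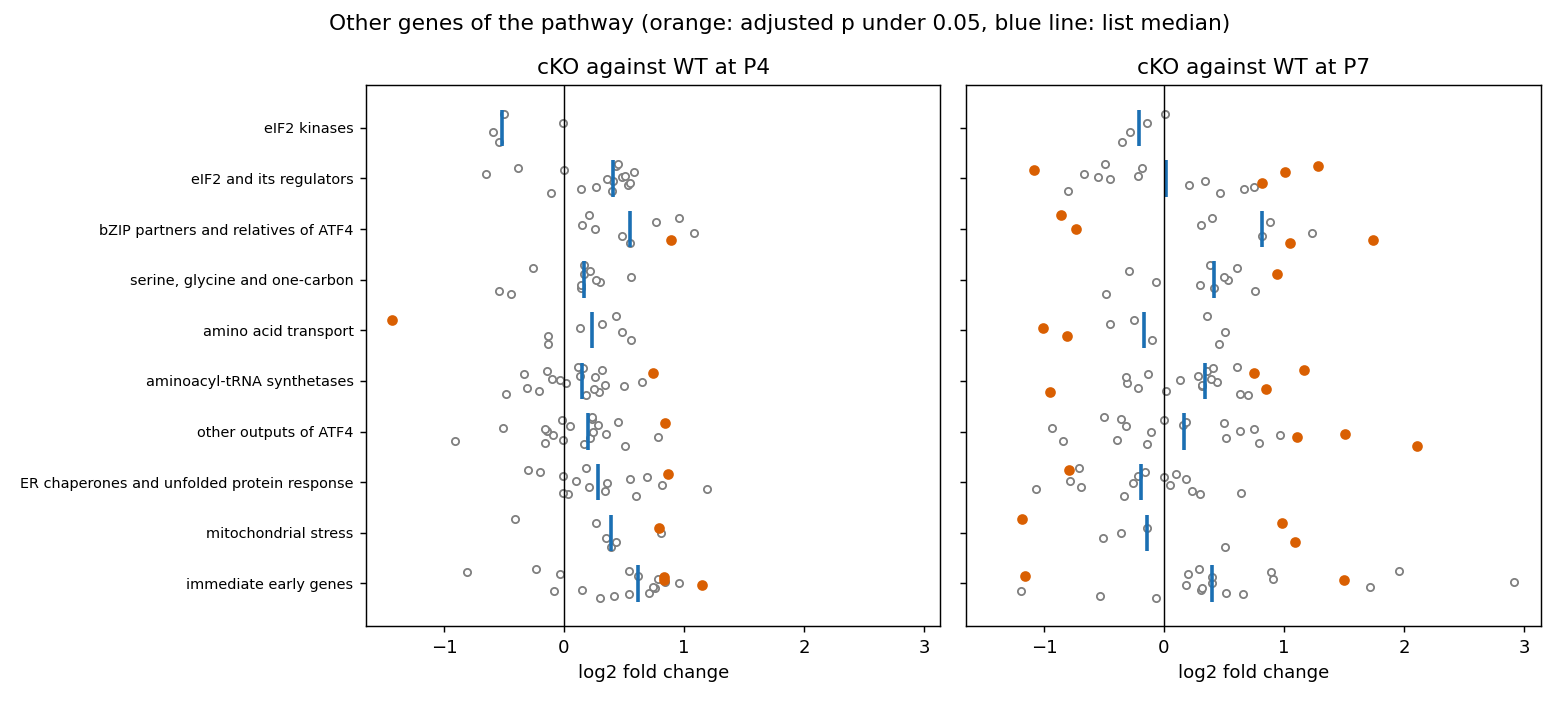
Log2 fold change in cKO against WT at P4 (left) and P7 (right) of the genes of 10 pathway lists, 1 point a gene; orange points have an adjusted p under 0.05 and blue lines are list medians. At P4 the medians run from -0.52 for the eIF2 kinases to 0.62 for the immediate early genes.

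Between the stages, 15 of the 128 pathway genes rose and 14 fell in WT (22.7%, where 21.8% of all genes were called), and 15 rose and 19 fell in cKO (26.6%, where 29.2% were). With offsets, 18 of the 29 calls in WT and 33 of the 34 in cKO were kept. Of all genes called, 2577 of 4016 in WT and 5228 of 5372 in cKO were kept. Mthfd2 rose by 1.49 in WT (adjusted p = 0.00274) and by 1.12 in cKO (adjusted p = 0.000659). Mthfd1, a cytosolic folate enzyme, fell in both (-0.97 and -0.69), the glycine carrier Slc6a9 fell in WT (-0.91), and Shmt2 (0.57) and Shmt1 (0.74) rose in cKO. Cebpg rose by 1.72 in WT (adjusted p = 0.000978) and by 0.73 in cKO (adjusted p = 0.00445), while Batf3 (-1.85 in WT) and Cebpa (-1.17 and -0.83) fell in both and Nfe2l2 rose in WT (1.44). Among regulators of eIF2, the phosphatase subunit Ppp1r15b (1.19) and Eif2b3 (0.75) rose and Dele1 (-0.92) fell in WT, and Oma1 (0.69) rose and Dnajc3 (-0.94) fell in cKO.

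Of 20 tested outputs of ATF4, 4 fell and 0 rose with stage in WT, and 6 fell and 1 rose in cKO, where 9.97% and 14.7% of all genes fell. Gdf15 fell in both genotypes (-2.75, adjusted p = 0.00329, and -1.58, adjusted p = 0.00160), as did Trib2, a relative of Trib3 (-1.27, adjusted p = 0.0209, and -1.86, adjusted p = 0.000150). Bbc3 (-1.33) and Cbs (-1.85) fell in WT, and Sesn1 (-0.49) and Pmaip1 (-0.76) in cKO. Cbs rested on 74 and 62 reads in P4 WT and 34 in the summed P7 WT sample. Of the transporters, Slc1a5 (-0.87) fell in WT and Slc38a1 (-1.23) and Slc7a11 (-1.53) in cKO. Slc7a11 had few reads, 26, 39 and 80 in P4 cKO and 14, 28 and 13 in P7 cKO. Of the synthetases, Dars (1.29) rose in WT and Mars1 (0.84), Rars (0.42), Tars (0.51) and Vars (0.54) in cKO. In the chaperone list Dnajb9 (2.41), Edem1 (0.97) and Atf6 (1.01) rose in WT, whereas in cKO Creld2 (0.60) rose and Pdia6 (-0.86), Calr (-0.65), Xbp1 (-0.55) and Hspa5 (-0.69) fell. Of the mitochondrial genes, Lonp1 (-1.09) fell and Yme1l1 (0.69) rose in WT, and Hspa9 (-0.63) fell in cKO. Of the immediate early genes, Btg2 (1.23 in cKO) and Jun (1.48 and 0.92) rose in both, Klf6 (1.71) and Dusp1 (1.18) in WT, and Zfp36 (1.47) in cKO. Klf4 rose in both, by 0.57 in cKO, where the call ended with offsets (0.53, adjusted p = 0.0681).

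Offsets ended several of the WT stage calls just given. Yme1l1 turned from 0.69 to -0.05 (adjusted p = 0.857), the one change of sign. The calls of Lonp1 (-0.69), Eif2b3 (0.59), Cebpa (-0.62), Slc6a9 (-0.53), Slc1a5 (-0.45), Cbs (-1.80), Bbc3 (-0.73) and Atf6 (0.78) ended with the sign kept, with adjusted p values of 0.0610 to 0.210.

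Markers of other cells moved with the P4 difference. Summed Leydig cell markers were at 908 and 942 CPM in WT and at 1190 to 1310 CPM in cKO, and 3 of 8 rose. Sertoli cell markers were at 3260 and 4170 CPM against 5210 to 5860 CPM, with 4 of 10 rising. The Sertoli cell list was not uniform, with 6 markers higher in every cKO sample and 2 lower in every one (24.1% and 25.6% of all genes). Macrophage markers were at 58.7 and 62.4 CPM against 73.8 to 129 CPM, with 3 of 7 rising. Peritubular and stromal markers were at 3940 and 4470 CPM against 4730 to 6220 CPM, with 3 of 8 rising, and endothelial markers at 257 and 258 CPM against 304 to 326 CPM, with 0 of 6 called. Germ cell markers were at 640 and 726 CPM in WT and at 571 to 661 CPM in cKO, and 2 of 12 fell. Of all genes tested, 4.84% were called higher at P4 and 4.13% lower. Erythroid markers summed to 2.19 to 19.4 CPM, with 4 or 5 of the 6 genes at 0. The part of these cells in the values of Phgdh and Cebpb was not tested. At P7 the Leydig cell markers (611 CPM in WT, 563 to 721 CPM in cKO), Sertoli cell markers (5240 and 4950 to 5320 CPM), macrophage markers (39.1 and 34.5 to 47.1 CPM), stromal markers (2270 and 2100 to 3180 CPM) and endothelial markers (147 and 104 to 156 CPM) overlapped between the genotypes, as did germ cell markers (2430 and 1930 to 2480 CPM). Erythroid markers did not overlap, at 16.4 CPM in WT and 2.19, 2.64 and 3.16 CPM in cKO, and 1 of the 2 tested was lower. Their part in the P7 values, whose calls ended with offsets, was not tested.

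Over the 9 samples, the genes whose log2 CPM was most like that of Atf4, among 12828 compared, were Nipsnap1 (Pearson r 0.971), Zfp511 (0.968), Zfp629 (0.961), Prob1 (0.954) and Ccdc107 (0.953). Those most like Phgdh were Nans (0.988), Cct7 (0.983), Pemt (0.982), Uck1 (0.981) and Ccdc86 (0.981). None of them belongs to the lists used here, and such values, the highest of many over 9 samples that share stage and genotype, are a description. Within the 10 genes the highest value was that of Ddit3 with Trib3 (0.84) and the lowest that of Ddit3 with Asns (-0.82), so the set did not move as 1 block.

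**Figure D5:**
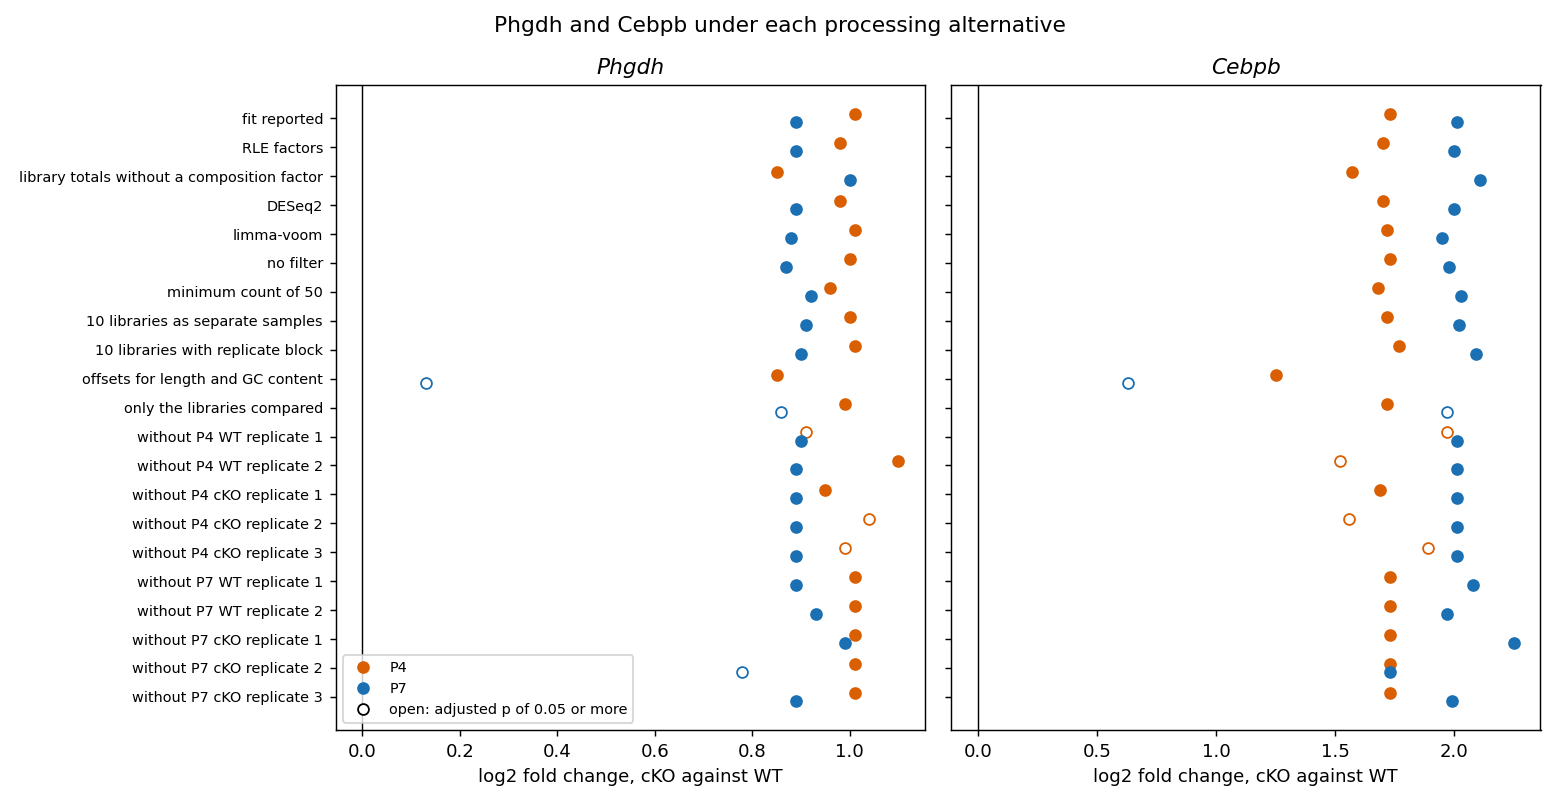
Log2 fold change of Phgdh (left) and Cebpb (right) in cKO against WT at P4 (orange) and P7 (blue) in the fit reported and each of 20 alternatives; open symbols have an adjusted p of 0.05 or more. Every value lies above 0, and the P7 values fall to 0.13 and 0.63 with offsets for length and GC content.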

How the data were processed

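The authors deposited 1 table of raw read counts per gene for 10 libraries, with exon lengths. Per the submitters' processing notes, reads were trimmed with Trim Galore 0.6.10, aligned with STAR 2.7.11a and counted with featureCounts (Subread 2.0.6) on GRCm38. The strand setting is not given in the sources used here.

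The P7 WT libraries were summed, counts were filtered with filterByExpr (18419 genes kept) and scaled with TMM, and tested with edgeR 4.0.16 under R 4.3.3. All 9 samples entered a robust quasi-likelihood fit with a mean for each group. The p-values are two-sided, adjusted by Benjamini-Hochberg over all genes tested, with 0.05 as threshold. The SE was derived from the log2 fold change and its F statistic. The labels do not state separate animals, so p-values measure the spread between samples. Alternatives used RLE factors, library totals, DESeq2 1.42.0, limma-voom (limma 3.58.1), other filters, 10 libraries with or without a replicate block, the compared libraries alone, each library left out, and offsets from splines (4 degrees of freedom each) in exon length and GC content, the latter from GENCODE M21 transcripts for 98.9% of tested genes.

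The members and lists were chosen with earlier results of these data known. Named genes are the 10 members, 13 further pathway genes, up to 4 called genes with the smallest p per list and comparison, and the 5 genes most like Atf4 and Phgdh. Ero1a of the lists was not matched to the table. Scripts were tested on simulated data.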

Additional observations from a re-analysis of the deposited data

How the results depend on the processing

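Of 983 alternative values of single members, 882 kept their direction and their side of the threshold, 20 lost the threshold, 32 gained it and 49 changed sign. No value past the threshold in the fit reported changed sign. Causes of these changes were not tested.

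Genes called at P4 (1651) were 3020 with DESeq2, 2895 with 10 libraries, 2732 with the replicate block, 3229 with the compared libraries alone and 2 to 4157 leaving out a library, with 0 to 3 members called. At P7 (3129) they were 6905 with 10 libraries, 7438 with the replicate block, 2 with offsets, 0 with the P7 libraries alone (edgeR) and 961 to 4921 leaving out a library. Members called at P7 were then 4, 5, 0, 0 and 1 to 3. From P4 to P7 in WT (4016) they were 7279 with 10 libraries, with 5 members, 7812 with the replicate block, with 6 members, and 1187 to 6315 leaving out a library, with 0 to 3 members. From P4 to P7 in cKO, 4 members were called with library totals, with DESeq2, with 10 libraries and with the replicate block, and 3520 to 5569 genes with 1 to 4 members leaving out a library. The interaction gave 3 genes with library totals, 1720 with DESeq2, 431 with no filter, 3105 with 10 libraries, 4311 with the replicate block, 1 with offsets and 0 to 1455 leaving out a library. Leaving out P4 WT libraries 1 and 2 gave 2 and 816 genes at P4; the P4 count was 570, 13 and 11 without P4 cKO libraries 1, 2 and 3, and 4157 without P7 cKO library 1. At P7 it was 4921 and 961 without P7 cKO libraries 1 and 2 and 2012 without P4 cKO library 2. Between the stages it was 1187 in WT without P4 WT library 1, 6315 in WT without P7 cKO library 1, and 3520 and 3571 in cKO without P4 cKO libraries 2 and 3. The interaction count was 716 without P4 WT library 2 and 1455 without P7 cKO library 1.

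Same-numbered libraries deviated together with correlations of 0.15, -0.09, 0.00 and -0.01, so the numbers were not taken to pair the samples.

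Sign changes, all short of the threshold, were as follows. At P4, Asns was -0.02 with RLE factors, -0.15 with library totals, -0.02 with DESeq2 and with the replicate block, -0.04 with a minimum count of 50, -0.00 with P4 alone and -0.09 to 0.11 leaving out a library. Atf4 was -0.13 with library totals, -0.02 with the stricter filter, -0.08 with offsets and -0.18 to 0.27 leaving out a library. Atf3 was -0.00 with library totals and -0.07 to 0.37 leaving out a library. Chac1 was -0.04 with library totals, -0.07 with limma-voom, -0.05 with offsets and -0.26 to 0.52 leaving out a library. At P7, Atf4 was -0.25 and Trib3 -0.33 with offsets, and Sesn2 -0.38 to 0.01 leaving out a library. Between the stages, Trib3 in WT was 0.45 with offsets. In cKO with library totals, Atf4 was 0.04, Asns 0.07 and Trib3 0.09, while leaving out a library gave -0.14 to 0.48 for Ddit3 and -0.17 to 0.04 for Trib3. In the interaction, Trib3 was 0.02 with RLE factors, with DESeq2 and with 10 libraries, 0.26 with library totals, 0.07 with the stricter filter, 0.01 with the replicate block and -0.08 to 0.13 leaving out a library. Psat1 was 0.20 with library totals, 0.01 with the stricter filter and -0.21 to 0.07 leaving out a library. Phgdh was 0.15 with library totals, and with offsets Atf4 was -0.16 and Cebpb -0.62.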
